A study of Mus musculus with 4 samples.

Results

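Spp1, the gene of osteopontin, was followed across the cell classes of 4 single-cell RNA libraries of mouse aorta, as 1 gene of the 32285 features counted. It was chosen by its levels in these same libraries, which differed between cell classes, so the levels below describe it and no test was made on them. The groups were WT aorta on normal diet, LysM-DKO aorta on normal diet, WT/ApoE-/- aorta on western diet and LysM-DKO/ApoE-/- aorta on western diet, with 1 library each. They are called WT normal, LysM-DKO normal, WT western and LysM-DKO western here. ApoE-/- mice lack apolipoprotein E and develop plaque in the artery wall, which western diet speeds up. What LysM-DKO deletes is not given in the labels. Epsins, which help cells take up membrane receptors, are named in the title of the series, and the LysM promoter is commonly used to delete genes in macrophages and other myeloid cells. The sources used here do not state the age, the number of mice per library or whether aortas were pooled. Intervals in brackets are 95% intervals for counting error alone and say nothing of the spread between mice.

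Osteopontin is a secreted, phosphorylated glycoprotein of the SIBLING family, whose genes stand side by side and mostly serve bone and tooth. It binds integrins through an RGD motif, binds CD44, and holds back the growth of calcium phosphate crystals. In plaque it is known as a product of lipid-laden macrophages and of wall cells that have taken on bone-like or cartilage-like programs, and it acts on adhesion and migration.

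Spp1 (ENSMUSG00000029304) lies at 104435118 to 104441050 on the plus strand of chromosome 5 in GENCODE M21 (GRCm38). The same annotation places an unconfirmed transcript, Gm42793, inside it on the same strand, at 104435121 to 104436372, which the authors' features did not include. The SIBLING genes Dmp1, Ibsp and Mepe lie upstream, and Pkd2 is the next protein-coding gene downstream. The 250 bases before the first RefSeq start (GRCm38.p6, chr5:104434861-104435110, plus strand) are printed because the bone factor Runx2 is followed below. Capitals mark the matches to TGNGGT, a loose form of the RUNX core with any base at N. Matches were sought on either strand. Both found here lie on the minus strand, so they are printed as the reverse complement ACCNCA, at 128 and 74 bases before the start.
Spp1: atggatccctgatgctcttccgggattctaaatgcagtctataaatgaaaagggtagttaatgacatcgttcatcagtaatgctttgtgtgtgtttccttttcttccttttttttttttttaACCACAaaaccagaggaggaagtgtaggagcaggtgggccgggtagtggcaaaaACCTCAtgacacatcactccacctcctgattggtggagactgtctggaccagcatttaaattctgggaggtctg
Of 32851 RefSeq promoter windows of the same length, 40.1% held a match to this loose form, and a match describes the letters, not a bound site. The 250 bases before the second RefSeq start of Spp1 (chr5:104435942-104436191) held none.

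Each barcode stands for a droplet that may hold a cell, and each unique molecular identifier (UMI) for 1 captured transcript. Barcodes numbered 13831 in WT normal, 15826 in LysM-DKO normal, 29724 in WT western and 11414 in LysM-DKO western, an order kept below, with 50662515 to 67450979 UMIs a library. After barcodes under 1000 UMIs or over 10% mitochondrial UMIs were left out, 7758, 8230, 13744 and 8133 remained, at medians of 4167, 3404, 2103 and 6761 UMIs. WT western was the shallow library, with 47.7% of its barcodes under 1000 UMIs against 12.9 to 14.4% in the others. Libraries shared 38 to 129 barcode sequences, at most 0.824% of the smaller library. Xist, of the inactive X, was at 973 and 951 UMIs per 1000000 (CPM) on normal diet and 0.608 in both libraries on western diet, and the Y-linked Ddx3y at 0, 0, 115 and 123. Diet, ApoE genotype, sex of the cells and the counting software version therefore cannot be told apart. In all macrophages the epsin gene Epn1 was at 81.7, 54.5, 52.4 and 42.7 CPM, Epn2 at 35.6, 33.6, 33.2 and 15.7, and Lyz2, the lysozyme gene at the LysM locus, at 3696, 977, 4126 and 798. Counts of 3' ends may come from outside a deleted stretch and so check nothing about the deletion. Apoe was at 7012, 5435, 8.44 and 8.55.

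Barcodes were put in the first class whose rule they met. Macrophages held at least 5 UMIs of the complement genes C1qa, C1qb and C1qc, and were split by at least 2 UMIs of Gpnmb, Trem2 and Mmp12, genes of lipid-associated macrophages, into Gpnmb-class macrophages (named for the first of the 3) and other macrophages. The chondrocyte-like rule asked for 5 UMIs of Col2a1, Cytl1 and Ibsp, the endothelial rule for 2 of Pecam1 and Cdh5, the fibroblast rule for 3 of Pdgfra and Serpinf1, and the smooth muscle rule for 3 of Myh11 and Cnn1.

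Some of these names did not hold in every library. On normal diet the chondrocyte-like rule was met almost wholly through Cytl1, with 5065 and 6152 UMIs against 5 and 41 of Col2a1 and 0 and 5 of Ibsp. Those barcodes had the highest summed endothelial markers of any class, 916 and 795 CPM, so the name was not borne out there. On western diet Col2a1 gave 44442 UMIs in WT and 14650 in LysM-DKO, and Ibsp 35654 and 2944. Barcodes with any UMI of Col2a1 or Ibsp were 1017 of 1161 in WT but 82 of 294 in LysM-DKO. Most LysM-DKO barcodes of this rule thus met it through Cytl1 alone. Their endothelial markers summed to 196 CPM, above the 154 under the endothelial rule, against 49.5 and 149 in WT. Of the barcodes taken by the endothelial rule, 81.0, 72.3, 77.4 and 88.4% also met the smooth muscle rule, and the 6 endothelial markers summed to only 149 and 154 CPM on western diet. Both classes are called by their rule below. Other macrophages of WT western carried 15012 CPM of 6 smooth muscle markers and 2759 of 7 macrophage markers, against 7321 and 5467 in LysM-DKO. In WT 37.0% of all macrophages stood just inside the C1q rule, at 5 to 9 UMIs, against 3.70% in LysM-DKO.

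Spp1 was high in WT western in every wall and macrophage class. Levels are Spp1 UMIs per 1000000 UMIs summed over the class (CPM). Gpnmb-class macrophages held 14592 (14444 to 14741, 503 barcodes). The chondrocyte-like rule gave 13785 (13690 to 13879, 1161 barcodes). Fibroblasts, named by their rule for the matrix-making cells of the outer wall, held 10449 (10333 to 10566, 539 barcodes). Their barcodes carried 14144 CPM of 6 markers of modulated wall cells, Lum and Vcam1 among them. That sum was 2940 in WT normal and 5688 in LysM-DKO western, so the class may hold other wall cells too. The barcodes of no class, lymphocytes and red cells apart, held 9096 (9005 to 9187, 1961 barcodes). The endothelial rule gave 4271 (4198 to 4346, 371 barcodes). Other macrophages held 3638 (3537 to 3740, 436 barcodes). Smooth muscle held 1434 (1421 to 1448, 8297 barcodes), the lowest class level in this library, and lymphocyte barcodes held 243 (214 to 274, 442 barcodes). The order runs from macrophages with lipid-associated genes and chondrocyte-like barcodes, whose levels differed by only 1.06 fold, down to smooth muscle. With 1 library the spread between mice is unknown, so neighbours in this order are ranked by counting error alone.

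In LysM-DKO western the order changed and every class level was lower. The chondrocyte-like rule gave 3845 CPM (3771 to 3920, 294 barcodes) and Gpnmb-class macrophages gave 2454 (2313 to 2601, 66 barcodes). Barcodes of no class gave 2364 (2241 to 2493, 197 barcodes), within the counting error of those macrophages. Fibroblasts held 959 (921 to 999, 536 barcodes) and the endothelial rule gave 263 (244 to 282, 336 barcodes). Other macrophages held 71.3 (41.5 to 114, 69 barcodes) and smooth muscle 61.1 (58.9 to 63.4, 6602 barcodes), levels that overlap in their intervals. Lymphocyte barcodes gave 47.3 (5.72 to 171), from only 2 UMIs in 16 barcodes.

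**Figure D1:**
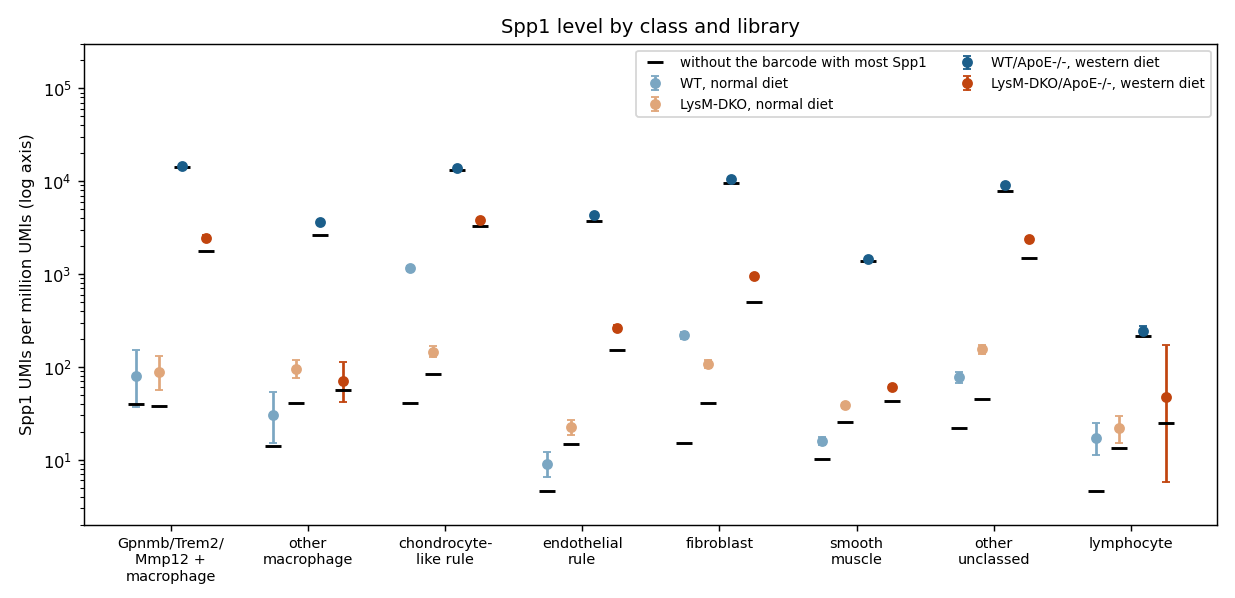
Spp1 CPM (log axis) for each class, 1 point per library, with 95% counting intervals and a black bar for the level without the barcode that held the most Spp1. WT western stands highest in every class, and the black bars fall far below the points in the chondrocyte-like and fibroblast classes of WT normal.

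On normal diet Spp1 was low in all classes, and what was counted sat in a few barcodes. Gpnmb-class macrophages held 80.2 (36.7 to 152, 9 UMIs in 13 barcodes) in WT and 88.0 (56.4 to 131, 24 UMIs in 35 barcodes) in LysM-DKO. Other macrophages held 30.1 (15.03 to 53.9) and 95.4 (75.5 to 119), and smooth muscle 15.9 (14.4 to 17.5) and 38.4 (35.9 to 41.1). The chondrocyte-like rule gave 1154 in WT and 146 in LysM-DKO, but 1 barcode held 1101 of the 1140 UMIs in WT, and without it the level was 40.4. Fibroblasts gave 218 in WT and 108 in LysM-DKO. There too 1 barcode held 545 of the 586 UMIs in WT, and without it the level was 15.3.

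The share each class held of the Spp1 UMIs of its library differed from its share of barcodes. In WT western, chondrocyte-like barcodes were 8.45% of kept barcodes and held 32.4% of Spp1, and smooth muscle was 60.4% of barcodes and held 18.3%. Macrophages of both kinds were 6.83% of barcodes and held 16.7%. In LysM-DKO western, chondrocyte-like barcodes were 3.61% of barcodes and held 54.8%, while macrophages were 1.66% and held 6.17%. Most Spp1 transcripts counted on western diet were thus outside the macrophage classes in both genotypes.

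**Figure D2:**
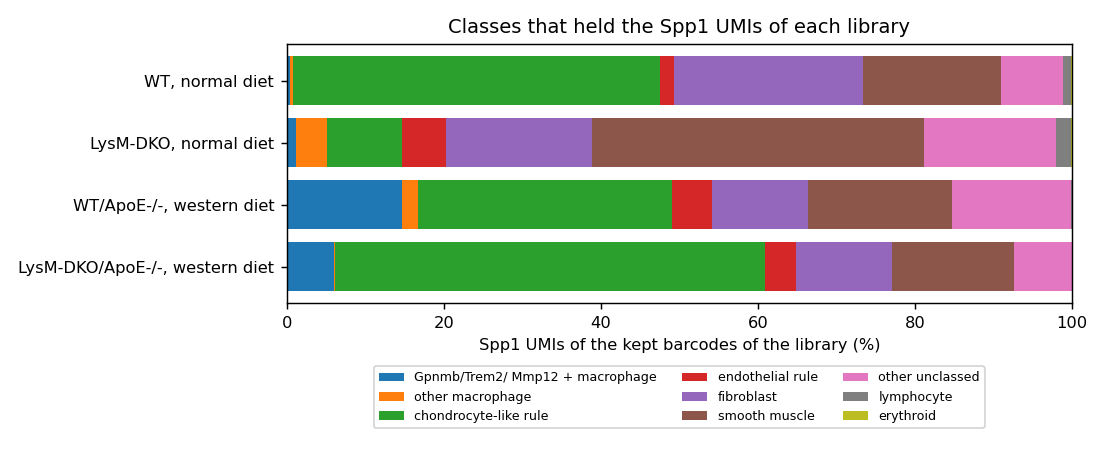
Share of each library's Spp1 UMIs held by each class, in percent of the kept barcodes' Spp1 UMIs, 1 bar per library. The chondrocyte-like rule takes the longest stretch on western diet, 32.4% in WT and 54.8% in LysM-DKO, and on normal diet in WT its 46.7% is nearly all 1 barcode.

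Free RNA sets a floor under these levels, because transcripts released from broken cells enter other droplets. Lymphocytes, known from T and B cell genes, were used to read it, since they met none of the class rules. Their Spp1 level was 17.1, 21.7, 243 and 47.3 CPM in the 4 libraries. Per UMI, this level would account for 1.67% of the Spp1 of Gpnmb-class macrophages of WT western, 1.76% in chondrocyte-like barcodes, 2.33% in fibroblasts, 6.68% in other macrophages and 16.9% in smooth muscle. In LysM-DKO western it would account for 1.93% in Gpnmb-class macrophages and 1.23% in chondrocyte-like barcodes. There the 61.1 of smooth muscle and the 71.3 of other macrophages were not distinguishable from the lymphocyte level. In WT normal the lymphocyte level is itself uncertain, because 1 of 410 barcodes held 19 of the 26 UMIs, and without it the level was 4.64. Red cell barcodes gave 4.92 (1.02 to 14.4) there, from 3 UMIs, and 6.41 in LysM-DKO normal. Smooth muscle of WT normal had a log2 ratio of -0.13 (-0.68 to 0.52) over lymphocytes, and of 1.03 without the barcode with the most Spp1 in each. The endothelial rule gave -0.94 (-1.65 to -0.17), and -0.08 without those barcodes. In LysM-DKO normal smooth muscle stood above its lymphocytes by a log2 ratio of 0.80 (0.35 to 1.34), and the endothelial rule did not, at 0.03 (-0.50 to 0.62).

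Shares of barcodes with a Spp1 UMI depend on depth and ordered the classes differently from the levels. Of WT western barcodes, 91.7% (88.9 to 93.9) of the Gpnmb-class macrophages had a UMI, at a median of 4103 UMIs, and 37.1% (32.6 to 41.8) of lymphocytes, at 2016.5. With every barcode thinned to 1000 UMIs the shares were 80.7 and 21.0%. Thinned shares were 83.4% in chondrocyte-like barcodes, 62.8% in other macrophages, 39.8% in smooth muscle, 39.6% under the endothelial rule and 33.6% in fibroblasts. Fibroblasts thus had the lowest share of these classes at a level of 10449 CPM, and smooth muscle a higher share at 1434. In smooth muscle barcodes of 4000 to under 8000 UMIs the level was 547 (534 to 561) and the thinned share 17.1%. The 16 lymphocytes of that depth held 96.5 (44.1 to 183), with a thinned share of 12.5%.

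In LysM-DKO western thinned shares were 30.3% (19.6 to 42.9) in Gpnmb-class macrophages, 17.01% in chondrocyte-like barcodes and 5.80% in other macrophages. They were 3.54% in fibroblasts and 1.56% in smooth muscle. None of 16 lymphocytes had a UMI after thinning, with an exact binomial upper bound of 20.6%. Unthinned, the shares were 51.5% of Gpnmb-class macrophages at a median of 5729 UMIs, 7.06% of smooth muscle at 6961 and 12.5% of lymphocytes at 2292.5.

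**Figure D3:**
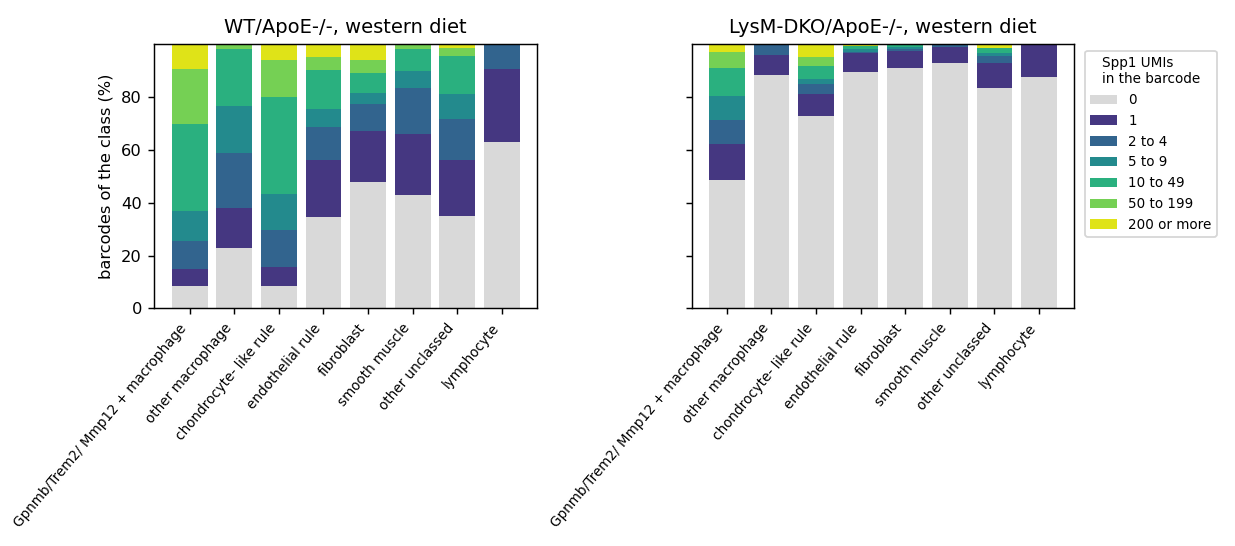
Percent of barcodes of each class by the number of Spp1 UMIs they held, for the libraries on western diet. In WT 8.35% of Gpnmb-class macrophages held no Spp1 UMI, against 48.5% in LysM-DKO, and 9.54% held 200 or more, against 3.03%.

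Within a class, Spp1 was unevenly spread. The median Gpnmb-class macrophage of WT western held 19 UMIs and the highest 1551, and 34 of 503 barcodes held 50% of the UMIs. In LysM-DKO the median was 1 UMI, the highest 332, and 3 of 66 barcodes held 50%. In chondrocyte-like barcodes the median was 13 in WT and 0 in LysM-DKO, and 28 and 5 barcodes held 50%. In smooth muscle 159 of 8297 barcodes held 50% in WT, and 3 of 6602 in LysM-DKO, where 1 barcode alone held 858 of 2917 UMIs. In fibroblasts 10 barcodes held 50% in WT and 2 in LysM-DKO. The barcode with the most Spp1 of all, 5607 UMIs, met no class rule and came from WT western.

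In macrophages Spp1 followed the lipid-associated genes. Gpnmb encodes a membrane glycoprotein of lysosome-rich macrophages, Trem2 a lipid-sensing receptor and Mmp12 the macrophage elastase. The Gpnmb class of WT western stood above the other macrophages by a log2 ratio of 2.004 (1.96 to 2.05), or 4.01 fold. In LysM-DKO the log2 ratio was 5.06 (4.42 to 5.89), from 1137 and 17 UMIs. WT normal gave 1.43 (-0.03 to 2.82) and LysM-DKO normal -0.10 (-0.84 to 0.56). The WT value on western diet turned on which barcodes count as macrophages: with 20 C1q UMIs required the log2 ratio was 4.24, and without barcodes that meet several class rules it was 2.80. Those that met only the macrophage rule held 13729 CPM and those that met another rule too held 6536.

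Counted in 1000 UMIs of each barcode, the level was higher at each step of the 3 genes. Macrophages of WT western with 0, 1, 2 to 3 and 4 or more UMIs of Gpnmb, Trem2 and Mmp12 held 4825, 7086, 14440 and 22854 Spp1 CPM, over 423, 210, 154 and 152 barcodes. In LysM-DKO the same steps gave 162, 1104, 2370 and 5125, over 74, 29, 14 and 18 barcodes. LysM-DKO was thus lower at matched marker counts too, by 29.5, 6.40, 6.08 and 4.46 fold. The last 2 steps rest on under 20 barcodes each in LysM-DKO. Without the barcode with the most Spp1 in each step the LysM-DKO levels were 117, 294, 1654 and 2809, and the folds 34.5, 22.7, 8.08 and 7.65. Macrophages with a UMI of Lyve1 or Folr2, receptors of resident macrophages, held 27144 in WT against 8949 without, over 91 and 848 barcodes. In LysM-DKO they held 179 against 1989, over 41 and 94 barcodes, so the direction by CPM differed between the libraries. In LysM-DKO 1 barcode held 23 of the 24 UMIs behind the 179, and without it the level was 7.99. Thinned shares were lower with these genes in both libraries, at 65.9 against 73.1% in WT and 4.88 against 23.4% in LysM-DKO.

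**Figure D4:**
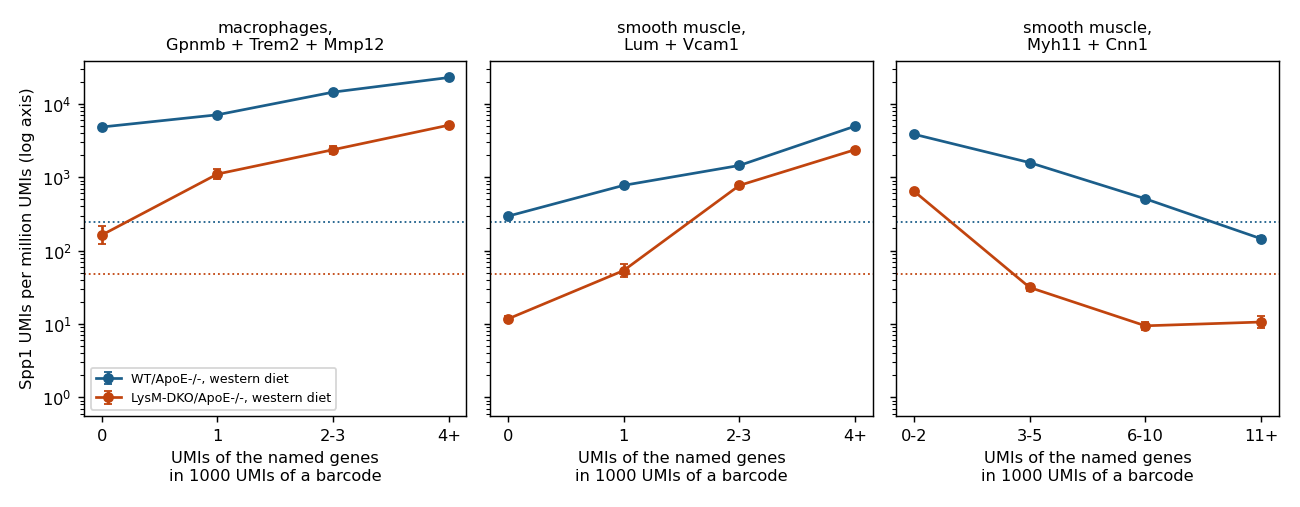
Spp1 CPM (log axis) in macrophages and smooth muscle of the western diet libraries, by the UMIs of named genes in 1000 UMIs of a barcode, with 95% counting intervals. Dotted lines mark the lymphocyte level of each library, 243 in WT and 47.3 in LysM-DKO, the latter from 2 UMIs; Spp1 climbs with Gpnmb, Trem2 and Mmp12 and with Lum and Vcam1, and drops with Myh11 and Cnn1.

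Chondrocyte-like barcodes had the smallest difference between genotypes on western diet by summed CPM, though not by share of barcodes. Their thinned share went from 83.4% in WT to 17.01% in LysM-DKO, while that of Gpnmb-class macrophages went from 80.7 to 30.3%. Col2a1 encodes the main cartilage collagen and Ibsp bone sialoprotein, another SIBLING. Barcodes with at least 5 UMIs of Col2a1 and Ibsp together held 15901 CPM of Spp1 in WT (837 barcodes) and 8936 in LysM-DKO (67 barcodes), a 1.78 fold difference. Barcodes that met the rule mainly through Cytl1 held 7810 and 439, a 17.8 fold difference. Among barcodes with 4 or more Col2a1 UMIs in 1000 the levels were 13274 in WT (339 barcodes) and 11413 in LysM-DKO (32 barcodes). With 0, 1 and 2 to 3 UMIs they were 14034, 15218 and 12586 in WT and 983, 15436 and 579 in LysM-DKO, over 244, 11 and 7 barcodes in LysM-DKO. The level thus did not follow Col2a1 in WT, and in LysM-DKO it was close to that of WT at 1 and at 4 or more UMIs but 14.3 and 21.6 fold lower at 0 and at 2 to 3. Without the barcode with the most Spp1 in each step, the 15436 of LysM-DKO was 8555 and the 15218 of WT was 7787.

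In smooth muscle Spp1 went with genes of the modulated, matrix-making state and against the contractile ones. Lum encodes a matrix proteoglycan and Vcam1 an adhesion molecule, both known in smooth muscle that has left the contractile state. Smooth muscle of WT western with 0, 1, 2 to 3 and 4 or more UMIs of Lum and Vcam1 in 1000 held 293, 773, 1444 and 4963 Spp1 CPM, over 3823, 1299, 1260 and 1915 barcodes. In LysM-DKO the values were 11.65, 53.3, 772 and 2371, over 6196, 246, 92 and 68 barcodes. At matched counts LysM-DKO was lower by 25.2, 14.4, 1.87 and 2.09 fold. Single barcodes set the last 2 of these: without the barcode with the most Spp1 in each step the LysM-DKO levels were 10.6, 32.5, 174 and 1252, and the folds 23.3, 23.1, 8.10 and 3.74. Lymphocyte barcodes held 243 in WT and 47.3 in LysM-DKO, the latter from 2 UMIs. The 293 of WT and the 11.65 and 53.3 of LysM-DKO were near or below those levels. The part of free RNA in the first 2 folds was not tested. Barcodes with 4 or more were 1915 of 8297 in WT and 68 of 6602 in LysM-DKO. The class rule used the contractile genes Myh11 and Cnn1. Over their counts Spp1 went from 3855 at 0 to 2 UMIs to 145 at 11 or more in WT. In LysM-DKO it went from 648 to 10.6. The 145 and the 10.6 were below the lymphocyte levels of their libraries.

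In WT western, fibroblasts and barcodes of no class followed Lum and Vcam1 as well. Fibroblasts of WT went from 176 CPM with none to 16080 with 4 or more. In LysM-DKO they went from 57.9 to 2168, but 1 barcode held 1098 of the 1150 UMIs of the last step, and without it the level was 102. Another held 989 of the 1050 UMIs at 2 to 3. The thinned shares over the 4 steps in LysM-DKO fibroblasts were 3.82, 2.33, 3.73 and 4.35%. Barcodes of no class went from 1161 to 16490 in WT and from 115 to 6890 in LysM-DKO, where the last step was 3658 without its highest barcode. Lum is itself one of the fibroblast markers followed here. Under the endothelial rule, barcodes without the smooth muscle rule held 11154 in WT and 81.3 in LysM-DKO, over 84 and 39 barcodes, and those with it 2803 and 278. Without the barcode with the most Spp1 on each side the first pair was 8230 and 23.1, and the second 2427 and 158.

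Between genotypes on western diet, Spp1 was lower in LysM-DKO in each class. LysM-DKO western over WT western gave a log2 ratio of -2.57 (-2.66 to -2.49) in Gpnmb-class macrophages, or 5.94 fold lower. In other macrophages it was -5.63 (-6.45 to -4.99), or 49.6 fold lower. The size there turned on the settings, which gave values from -7.14 to -3.30. The -3.30 came with 20 C1q UMIs required, from 15 UMIs in LysM-DKO and 385 in WT. Without barcodes that meet several class rules the value was -4.65. Chondrocyte-like barcodes gave -1.84 (-1.87 to -1.81) and barcodes of no class -1.94 (-2.02 to -1.87). Fibroblasts gave -3.44 (-3.51 to -3.38), the endothelial rule -4.02 (-4.13 to -3.92) and smooth muscle -4.55 (-4.61 to -4.50). Over all kept barcodes it was -3.85 (-3.87 to -3.83). The lymphocyte level was lower in LysM-DKO as well, at -2.04 (-5.42 to -0.50).

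Other genes differed as well, and since Spp1 was chosen on these contrasts nothing is read from its place among them. In all macrophages 9.1% of 10418 genes were at least 2 fold lower in LysM-DKO and 4.1% at least 2 fold higher, and Spp1 was number 132 from the lowest. In other macrophages 15.8% of 7850 genes were at least 2 fold lower and Spp1 was number 7. In smooth muscle 9.37% of 15500 were lower and Spp1 was number 91. In chondrocyte-like barcodes 4.04% of 11934 were lower and Spp1 was number 175. Depth, smooth muscle RNA in macrophage barcodes and the makeup of each class moved with the genotype, and their part in the ratios was not tested. In macrophages that met the macrophage rule alone the levels were 13729 in WT and 2138 in LysM-DKO, a 6.42 fold difference, or 10.2 fold without the barcode with the most Spp1 in each. Within 4 ranges of barcode depth, macrophages of LysM-DKO were lower by 3.86 to 197 fold, the 3.86 fold between 8390 and 2170 at 4000 to under 8000 UMIs. Without the barcode with the most Spp1 in each that fold was 7.88. The 197 fold, at 2000 to under 4000 UMIs, rests on 5 Spp1 UMIs in 53 LysM-DKO barcodes. Their level was 31.4, beside 47.3 in lymphocytes of that library. The next largest, 86.3 fold at 1000 to under 2000 UMIs, rests on 2 Spp1 UMIs in 13 barcodes.

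On normal diet the direction differed by class. LysM-DKO normal over WT normal gave a log2 ratio of 1.13 (0.46 to 1.93) in all macrophages, from 103 and 20 UMIs, and 1.27 (1.10 to 1.44) in smooth muscle. It was 1.61 (0.75 to 2.72) in other macrophages and 0.08 (-1.02 to 1.42) in Gpnmb-class macrophages. Chondrocyte-like barcodes gave -2.98 and fibroblasts -1.01, but without the barcode with the most Spp1 in each library these turned to 1.04 and 1.41. The share of genes at least 2 fold higher was 6.55% in all macrophages and 7.09% in smooth muscle. With all macrophages at 41.9 in WT and 93.6 in LysM-DKO, these ratios compare small numbers of UMIs.

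**Figure D5:**
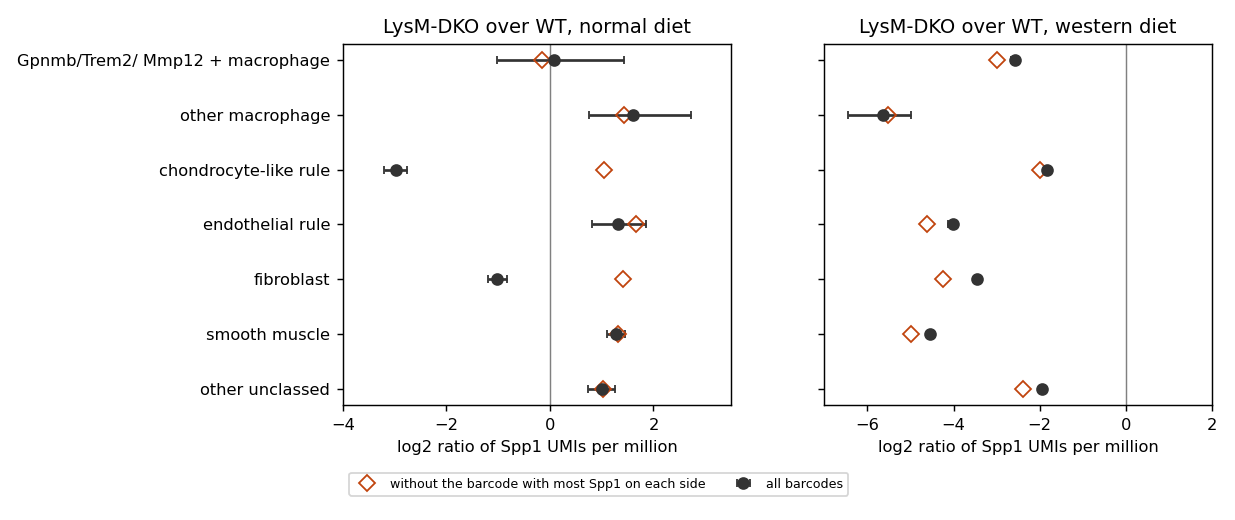
Log2 ratio of LysM-DKO over WT in Spp1 CPM for each class, on normal and on western diet, with 95% counting intervals (filled points) and without the barcode with the most Spp1 on each side (open diamonds). On western diet all points lie below 0, while on normal diet the chondrocyte-like and fibroblast points change side when those barcodes are left out.

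Between diets, Spp1 was higher on western diet in nearly every class, joined with ApoE genotype and sex. In all macrophages of WT it went from 41.9 to 10769 CPM, a log2 ratio of 7.97 (7.38 to 8.72). It was the first of 10342 genes in this ranking, in which 21% were at least 2 fold higher. In smooth muscle of WT it went from 15.9 to 1434, a log2 ratio of 6.49 (6.36 to 6.64), as number 14 of 15648, of which 5.31% were at least 2 fold higher. In all macrophages of LysM-DKO it went from 93.6 to 1644, a log2 ratio of 4.13 (3.84 to 4.44), with 7.11% of genes at least 2 fold higher. In smooth muscle of LysM-DKO the log2 ratio was only 0.67 (0.56 to 0.78), and with the lymphocyte level taken off it turned to -0.27. In other macrophages of LysM-DKO it was -0.39 (-1.27 to 0.35), from 17 and 79 UMIs, and 0.47 without the barcode with the most Spp1 in each library. Comparisons here share libraries, so the values stand side by side and are not independent.

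By UMIs, which count transcripts regardless of their length, Spp1 was number 5 among the 15775 genes seen in Gpnmb-class macrophages of WT western, with 1.46% of their UMIs. In other macrophages it was number 19 with 0.364%.

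The other SIBLING genes were lower than Spp1 in the classes given here. Ibsp was at 6006 CPM in chondrocyte-like barcodes of WT western and at 1105 in LysM-DKO, where the class rule used it. In smooth muscle it was at 27.4 and 6.81. Barcodes that met the chondrocyte-like rule, which counts Ibsp, were taken before the smooth muscle rule was applied. The smooth muscle values were thus capped by the sorting and cannot show whether Ibsp spread to that class as Spp1 did. The macrophage rule was applied earlier and set no such cap. In Gpnmb-class macrophages Ibsp was at 55.0 and 2.16. Dmp1 and Mepe, mineral-binding proteins of bone, gave 10.6 and 18.7 in chondrocyte-like barcodes of WT. Dspp, of dentin, was at 0 in the macrophage, chondrocyte-like, fibroblast and smooth muscle classes of both western diet libraries.

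Receptors of osteopontin were counted next. Of 10 integrin and CD44 genes listed, 9 had at least 20 UMIs in all macrophages on western diet, and none was 2 fold higher or lower in LysM-DKO, where 4.1% of all genes were higher and 9.1% lower. A count of 0 of 9 is close to these shares. Their median log2 ratio was -0.07, beside -0.05 over all genes. In other macrophages 2 of 9 were at least 2 fold lower, with a median of -0.64, where 15.8% of all genes were lower, and in smooth muscle 1 of 9 was, where 9.37% were. Cd44, the hyaluronan receptor, was at 427 in Gpnmb-class macrophages of both WT and LysM-DKO, beside 14592 and 2454 for Spp1. Itgb1, the common integrin beta chain, was at 845 and 788 there, Itgb5 at 340 and 442, and Itga8 at 326 and 203. These barcodes carried smooth muscle RNA too. Their 6 smooth muscle markers summed to 5808 and 4209 CPM, beside 5005 and 5472 for 7 macrophage markers. Its part in the receptor levels, Itga8 among them, was not tested.

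Enzymes that cut, cross-link or phosphorylate osteopontin were mixed. Of 7 listed, 5 were measured in all macrophages on western diet, 2 of them at least 2 fold higher and 1 at least 2 fold lower in LysM-DKO, where 4.1% of all genes were higher and 9.1% lower. In smooth muscle 3 of 6 were lower, where 9.37% of all genes were, and none higher, where 1.92% were. In the Gpnmb class Acp5, a phosphatase of osteoclasts and macrophages, was at 75.4 in WT and 175 in LysM-DKO. Tgm2, a transglutaminase, was at 203 and 183, Fam20c, the kinase of secreted proteins, at 75.4 and 88.5, and Mmp3 at 89.9 in WT.

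Lipid-associated macrophage genes went with Spp1 between the macrophage classes. Of 13 listed, 12 were at least 2 fold higher in the Gpnmb class in WT western, where 5.7% of all genes were, with a median log2 ratio of 2.23 beside -0.10 over all genes. In LysM-DKO 11 of 13 were, where 11.2% of all genes were, with a median of 2.57 beside 0.00. These genes were chosen with the class in view, so the count describes the class. Between genotypes in that class they differed less than Spp1: none was 2 fold higher, where 3.91% of all genes were, 2 were 2 fold lower in LysM-DKO, where 7.72% were, and the median log2 ratio was -0.30. The cathepsins Ctsb and Ctsd were at 7161 and 4087 in WT and 5307 and 2519 in LysM-DKO. Lgals3, a lectin of phagocytes, was at 3361 and 2931, and Fabp5, a fatty acid carrier, at 3145 and 2670.

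Resident macrophage genes ran the other way. In other macrophages on western diet 7 of the 7 measured genes were at least 2 fold higher in LysM-DKO, where 8.78% of all genes were, with a median log2 ratio of 2.77. Mrc1, the mannose receptor, was at 482 in WT and 1870 in LysM-DKO, Pf4, a chemokine, at 241 and 1266, F13a1 at 150 and 1023, and Lyve1 at 56.4 and 658. Spp1 in the same barcodes was at 3638 and 71.3. As given above, the WT barcodes of this class carried more smooth muscle RNA, and its part in these ratios was not tested.

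Mineral genes marked the chondrocyte-like class. Of 7 listed, 6 were at least 2 fold higher there than in smooth muscle in WT western, where 7.85% of all genes were, and 7 of 7 in LysM-DKO, where 15.5% were. Spp1 was higher by a log2 ratio of 3.26 in WT and 5.97 in LysM-DKO. Tnfrsf11b, the decoy receptor osteoprotegerin, was at 954 in chondrocyte-like barcodes of WT and 178 in smooth muscle, and Col10a1, of hypertrophic cartilage, at 271 and 3.35. Ank, a pyrophosphate transporter, was at 261 and 77.9, while Mgp, an inhibitor of calcification, was at 16025 and 13979 and so not past 2 fold. Of the 5 osteogenic factors, 4 were at least 2 fold higher in this class in each library. Sox9, the cartilage factor, was at 483 in WT and 377 in LysM-DKO, against 27.9 and 15.1 in smooth muscle. Runx2, the bone factor, was at 36.6 and 29.3 against 5.46 and 2.03, and Sp7, which acts after it, at 16.3 and 5.25 against 0.558 and 0.126. Mitf was at 22.2 and 24.4 against 31.9 and 40.55, so it was not higher in this class.

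The genes whose levels were most like those of Spp1 were sought over 30 groups of library and class, by the Pearson correlation of log2 values, among 3607 genes. Timp1, an inhibitor of matrix proteases, came first at 0.863, followed by Txndc17 at 0.846, Anxa8 at 0.843, Nme1 at 0.832 and Ecrg4 at 0.831. Over the 15 groups on western diet their correlations were 0.82, 0.68, 0.74, 0.86 and 0.81 in the same order. The groups share libraries, depth and free RNA, so these are descriptions with no p. With at least 20 UMIs in all groups together as the limit, 1 of the 5 stayed among the first 5 and all 5 among the first 20.

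Macrophages rich in Spp1 were compared with those poor in it within each western diet library, as the 10% with the highest and the 50% with the lowest Spp1 share of UMIs. Spp1 was at 53349 against 831 CPM in WT and at 8032 against 0 in LysM-DKO. The genes higher by most in both were Npy, a neuropeptide (239 against 6.19 in WT), Mamdc2 (97.7 against 12.9), Ctsd (6470 against 1405), Syngr1, a vesicle protein (536 against 118), and Itgax, the integrin CD11c (406 against 94.8). In LysM-DKO Ctsd was at 3803 against 693 and Itgax at 314 against 20.9. The genes lower by most were the chemokine Cxcl10 (13.03 against 682 in WT), Mrc1 (21.7 against 461), F13a1, a clotting factor chain (8.69 against 157), the chemokine Ccl7 (39.1 against 489) and Mgl2, a lectin (0 against 108). In LysM-DKO Mrc1 was at 14.9 against 2059 and Cxcl10 at 37.4 against 1408. The rich barcodes belonged to the Gpnmb class in 87.2% of cases in WT and all 14 in LysM-DKO, against 39.0 and 19.4% of the poor ones. Rich and poor barcodes also differed in depth, at medians of 2865.5 and 3448 UMIs in WT and 8373.5 and 2828 in LysM-DKO. The 67 poor barcodes of LysM-DKO were a part of 93 with no Spp1 UMI, whose median was 3458. Which of these were taken thus made part of that gap. Over all 93, Mrc1 was at 1369 and Cxcl10 at 1160. In WT 18.1% of the rich and 43.7% of the poor barcodes met several class rules.

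The same split in smooth muscle gave 15010 against 30.2 CPM of Spp1 in WT and 461 against 0 in LysM-DKO. In LysM-DKO only 466 of the 661 barcodes on the rich side held a Spp1 UMI, 400 of them just 1, and the other 195 were taken by depth, so the split there is weak. The genes higher by most in both libraries were Lum (5407 against 512 in WT, 383 against 25.2 in LysM-DKO), Timp1 (1310 against 119, and 125 against 13.4) and Vcam1 (2598 against 492, and 419 against 47.7). They were followed by the proteoglycan Dcn (4740 against 516, and 355 against 89.3) and the cartilage matrix protein Comp (148 against 27.2, and 83.4 against 23.7). The genes lower by most, Fibin, Gstm1, Tes, Fdx1 and Gm34455, differed less, with log2 ratios between -1.13 and -0.41 in WT western and between -0.43 and -0.39 in LysM-DKO western. In WT the rich barcodes were shallower, at a median of 1655.5 UMIs against 4475.5, and in LysM-DKO deeper, at 8346 against 5745. The 3301 poor barcodes of LysM-DKO were a part of 6136 with no Spp1 UMI, whose median was 6945, so the choice among them made part of that gap. With the 66 LysM-DKO barcodes of at least 2 Spp1 UMIs set against the 6136 with none, a split chosen after seeing the data, Lum was at 2444 against 34.8, Timp1 at 865 against 18.4 and Vcam1 at 1902 against 97.5. Dcn was at 1889 against 75.6 and Comp at 451 against 31.5 in that split.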

How the data were processed

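The authors deposited 1 matrix of whole-number counts per library, UMIs per gene and barcode, not normalized. Per the labels' protocols, aortas were digested with collagenases and liberase and loaded on a 10x Genomics 3' kit. Per the file headers, Cell Ranger was version 6.0.1 for both normal diet files and 6.1.2 for both western diet files. The submitters' processing notes name Cell Ranger 6.1.2, Seurat 4.1.0 and mm10. No doublet caller was run; barcodes meeting several class rules were left out in an alternative. The files held no barcode under 500 UMIs, so free RNA was read from lymphocytes (at least 3 UMIs of Cd3d, Cd3e, Cd79a, Cd79b and Ms4a1, no class rule met). Red cell barcodes, at least 50% hemoglobin UMIs, stood apart.

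UMIs were summed per library and class and given per 1000000 (CPM). Log2 ratios add 0.5 UMIs to each side. Intervals are exact Poisson for levels, exact conditional binomial for ratios and exact binomial for shares (95%). With 1 library per group no test was made. Thinning drew 1000 UMIs per barcode without replacement (seed 7). A gene entered a 2 fold count with at least 20 UMIs over both profiles. Likeness used log2(CPM + 10) over groups of at least 20 barcodes and genes of at least 100 CPM in 1 group, without the class genes and without mitochondrial and ribosomal protein genes. List members named are those with at least 100 UMIs, the highest 4 where more, and all SIBLING genes. The splits by Spp1 share name 5 genes per direction, ranked by the smaller of the 2 libraries' ratios, at no less than 50 CPM on average in each. Members, classes and lists were chosen with earlier results of these data known. The list gene Ankh is Ank in the files. Gene positions came from GENCODE M21, with 99.6% of 32285 features matched, and the promoter from RefSeq. Computations used scipy 1.17.1, numpy 2.4.6, pandas 2.3.3, matplotlib 3.10.9 and python 3.11.15, and were tested on simulated data. PCR and sampling of cells are outside the intervals.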

Additional observations from a re-analysis of the deposited data

Results flagged for a closer look

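Log2 ratios of Spp1 had opposite signs between groups for the following results, each untested because each group is 1 library. For LysM-DKO over WT, the log2 ratio on western diet minus the one on normal diet was -2.66 in Gpnmb-class macrophages (-2.57 against 0.08, the latter with an interval that includes 0). It was -7.24 in other macrophages (-5.63 against 1.61) and -3.84 in all macrophages (-2.71 against 1.13). In smooth muscle it was -5.82 (-4.55 against 1.27), where the normal diet levels were 15.9 in WT, beside 17.1 in lymphocytes (4.64 without 1 barcode), and 38.4 in LysM-DKO, beside 21.7. Under the endothelial rule it was -5.33 (-4.02 against 1.31). The normal diet levels there were 9.02 in WT and 22.5 in LysM-DKO, near or below the lymphocyte levels of 17.1 and 21.7. In barcodes of no class it was -2.94 (-1.94 against 1.001). Seen from the diet side, other macrophages had a log2 ratio of western over normal diet of 6.85 in WT and -0.39 in LysM-DKO, a difference of -7.24. The -0.39 had an interval of -1.27 to 0.35. It was 0.47 without the barcode with the most Spp1 in each library, so no opposite direction was shown there.

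Barcodes left out of the classes also carried Spp1 above the normal diet libraries. Barcodes under 1000 UMIs held 3390 CPM in WT western, against 26.8 in WT normal, and with them went 11.5% of the Spp1 of that library. In LysM-DKO they held 189, against 21.4. Barcodes over 10% mitochondrial UMIs held 2627 in WT western, against 13.1, and 201 in LysM-DKO, against 10.7.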

How the results depend on the processing

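Of 99 values of 10 log2 ratios recomputed under other settings, 98 kept their direction, 53 stayed within the counting interval of the reported ratio, 45 moved outside it and 1 reversed. The ratios are Gpnmb-class over other macrophages (A in WT western, B in LysM-DKO western), LysM-DKO over WT on western diet (C in Gpnmb-class macrophages, D in other macrophages, E in smooth muscle) and on normal diet (F in all macrophages), and western over normal diet (G and H in all macrophages of WT and LysM-DKO, I and J in smooth muscle of WT and LysM-DKO). The cause of each move was not tested. With at least 500 UMIs a barcode, A was 1.86 and E -4.61. With at least 2000, A was 2.23, E -4.35 and I 6.29. With up to 20% mitochondrial UMIs, E was -4.47 and J 0.996. With equal weight for each barcode, A was 1.82, C -2.71, E -5.60, F 2.05, H 3.20, I 7.43 and J 0.44. Without barcodes meeting several class rules, A was 2.80, C -2.41, D -4.65, G 7.29 and H 3.29. With classes and Spp1 on barcodes thinned to 1000 UMIs, A was 1.64, B 3.97, C -2.16, D -4.49, E -6.32, F 2.41, G 10.07, I 8.53 and J 1.02. F and G there compare 7 and 7137 UMIs with 0 in WT normal, so their size is set by the 0.5 UMIs added and is no estimate. With the lymphocyte level subtracted, A was 2.08, B 6.65, D -7.14, E -6.42, G 8.73, H 4.47 and J reversed to -0.27. I gave no value there, because smooth muscle of WT normal was not above its lymphocytes, of whose 26 UMIs 1 barcode held 19. With median-ratio scaling, A was 2.11. With 20 C1q UMIs required, A was 4.24, D -3.30, E -4.61, F 0.43 and H 4.72. Without the barcode with the most Spp1 on each side, a setting chosen after seeing the data, A was 2.40, C -3.00, E -4.99, H 4.47 and I 7.08. Of the 5 genes most like Spp1, 4 stayed among the first 5 with a pseudocount of 1 and 1 with the limit of 20 UMIs. No paired analysis was possible because each group is 1 library.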

Other observations

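Inflammatory genes differed between genotypes on western diet in a direction that varied by class. Of 6 listed, 3 were at least 2 fold higher and 1 at least 2 fold lower in other macrophages of LysM-DKO, where 8.78% of all genes were higher and 15.8% lower, with a median log2 ratio of 0.96. The chemokine genes Cxcl2 and Ccl4 were at 6833 and 3582 CPM in other macrophages of WT and at 17774 and 7652 in LysM-DKO. In Gpnmb-class macrophages Cxcl2 was at 4254 and 7442, Ccl4 at 1815 and 2974, and Tnf at 700 and 611. In smooth muscle all 6 were at least 2 fold lower in LysM-DKO, where 9.37% of all genes were, and Cxcl2 was at 105 and 14.4. In chondrocyte-like barcodes 5 of 6 were at least 2 fold lower in LysM-DKO, where 4.04% of all genes were, with a median log2 ratio of -4.46, beside -3.31 in smooth muscle. Spp1 was lower in LysM-DKO in each of these classes. Spp1 in the same smooth muscle barcodes was at 1434 and 61.1. Macrophage genes were lower there in LysM-DKO as well, Lyz2 at 47.7 and 0.901 and C1qa at 19.6 and 0.713. In chondrocyte-like barcodes C1qa was at 24.3 and 1.13. How much of the inflammatory counts in these 2 classes was RNA of macrophages was not tested.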
